A study of Macaca mulatta with 30 samples.

Results

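Pancreas and testis were compared together with cerebral cortex, fibroblast and thymus. The rule asked for genes whose mean signal in the lower of pancreas and testis exceeded the highest of the other 3 tissue means, and for genes with the reverse order. It used 12 of the 30 arrays on the first side and 18 on the second, with center as a covariate. Of 14133 genes with a symbol, 542 were called higher in both pancreas and testis and 424 lower in both. By at least 1 on the log2 scale, 45 genes were higher and 24 were lower.

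The arrays were rhesus macaque GeneChips, and each value is a log2 signal. Total RNA came from 5 sources: cerebral cortex, pancreas, testis, thymus and a line of immortalized fibroblasts. Each source was 1 RNA sample, from which 2 aliquots went to each of the 3 centers (Oregon, Nebraska and Yerkes), giving 6 arrays per tissue. Pancreas, testis and thymus RNA was extracted at Oregon, cortex RNA at Yerkes and fibroblast RNA at Nebraska, so that center of extraction and tissue cannot be told apart for cortex and fibroblast. No treatment or genetic change of the animals is named in the labels, and neither age nor the number of animals is given there. The p-values therefore describe the spread of labeling and hybridization of these 5 RNA samples and do not extend to other animals. In tissue RNA, fewer cells of a type and less RNA per cell cannot be told apart.

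The exocrine pancreas is built of acinar cells, which make digestive proenzymes, and of ducts that carry them to the gut. The testis holds germ cells within tubules of Sertoli cells, with hormone-making Leydig cells between them. Each organ is lined by polarized epithelial cells, and each uses GATA and nuclear receptor transcription factors in its development.

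The labels of the 2 tissues were checked against their markers. Of 19 acinar genes measured, 18 were highest in pancreas. Of 11 genes of testis somatic cells, 10 were highest in testis, among them AMH, the anti-Müllerian hormone of Sertoli cells, at 12.28, and the Leydig cell enzyme gene CYP17A1 at 9.53. Of 11 germ cell genes, 7 were highest in testis, for example TKTL1 at 11.63 and DAZL, an RNA-binding protein of germ cells, at 7.96. Genes of late spermatids were not among them. PRM1, a protamine, was at 6.35 in testis and between 6.54 and 6.57 in cortex, fibroblast and thymus, and the sperm tail gene ODF1 was at 6.27 in testis, 6.10 in fibroblast, 6.38 in thymus and 6.56 in cortex.

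A gene was called higher in both when pancreas and testis each exceeded cortex, fibroblast and thymus, with an adjusted p under 0.05 from limma in all 6 contrasts. The joint difference is the lower of the pancreas and testis means minus the highest of the other 3 means. For genes lower in both it is the higher of the 2 means minus the lowest of the other 3. The 542 genes higher in both made up 3.83% of the genes tested, and the 424 genes lower in both 3.00%. Those past a difference of 1 made up 0.318% and 0.170%. The median joint difference was 0.36 over the genes called higher and -0.38 over those called lower, so most calls were small. Without a test, 1010 genes (7.15%) had both means above the other 3. Of the 542 and 424 genes, 371 and 315 had no overlap between the 12 and 18 arrays at any center (2.65% and 2.34% of all genes had none). All 45 and all 24 genes past a difference of 1 were among them. With all arrays shifted to one median, 359 genes were called higher and 506 lower.

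**Figure D1:**
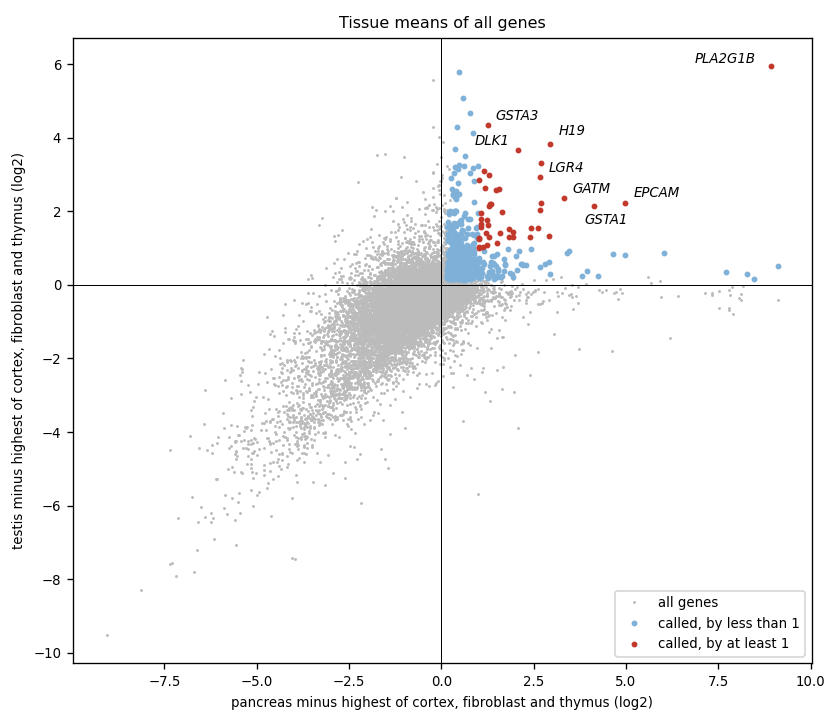
Each point is 1 of 14133 genes, placed by its pancreas mean (x axis) and its testis mean (y axis) minus the highest of the cortex, fibroblast and thymus means, in log2 units of 6-array means. Blue points are genes called higher in both by less than 1 and red points the 45 by at least 1, with PLA2G1B alone at the upper right (8.93 and 5.95).

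PLA2G1B, the secreted phospholipase A2 of pancreatic juice, had the largest joint difference of all genes. In pancreas its lowest, median and highest log2 signals over the 6 arrays were 14.26, 14.40 and 14.82. In testis they were 11.22, 11.54 and 11.77. The highest array of any other tissue was at 6.17, in cortex, so that all 12 arrays lay far above the other 18. The joint difference was 5.95 (SE 0.08, largest of the 6 adjusted p = 6.49e-32, limma). The centers gave 5.90 (Oregon), 6.29 (Nebraska) and 5.64 (Yerkes). Pancreas exceeded testis by 2.98 (SE 0.08, adjusted p = 2.97e-24, limma). No further probeset was named for PLA2G1B, so its testis signal could not be compared between probesets. Signal from other transcripts on the probeset used was not tested.

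On the probesets used here, the other acinar genes did not share a testis signal of this size. PRSS2, a trypsinogen, was at 14.84 in pancreas but 5.33 in testis, below the 5.73 of cortex. CPB1, a procarboxypeptidase, was at 14.34 and 6.14, and CLPS, the colipase of pancreatic juice, at 14.69 and 6.16. Over the 19 acinar genes, pancreas exceeded the highest other tissue by a median of 7.83, whereas testis stood at a median of -0.25 against the same level. Besides PLA2G1B, 3 acinar genes were called higher in both (with it 21.1% of the list, against 3.83% of all genes). On the probeset used each of the 3 was close to the other tissues in testis. PNLIP, the pancreatic lipase, was 0.52 (SE 0.08) above them, the related lipase gene PNLIPRP2 0.34 (SE 0.08) and the procarboxypeptidase gene CPA1 0.17 (SE 0.07). Both further PNLIPRP2 probesets were called by more. The joint difference was 2.09 on the first (6.54 in testis, 4.45 in thymus) and 1.27 on the other (6.92 in testis, 5.64 in fibroblast). CPA1 lost its call at each center alone, with differences of 0.07 (Oregon), 0.19 (Nebraska) and 0.06 (Yerkes). It was also lost with the replicate block (adjusted p = 0.0507, limma), with aliquots averaged (0.121), after quantile normalization of all arrays (0.115), with arrays shifted to one median (0.205) and in 12 of 30 fits without 1 array.

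Of 11 phospholipase A2 genes measured, PLA2G1B and PLA2G12A were called higher in both (18.2%, against 3.83% of all genes) and none lower. PLA2G12A, another secreted form, was at 8.69 in pancreas, 8.51 in testis and 8.30 in fibroblast. Its joint difference was 0.21 (SE 0.09, adjusted p = 0.0412, limma), but -0.02 at Oregon. The call was lost in 9 alternative settings, among them the replicate block (adjusted p = 0.054, limma) and arrays shifted to one median (adjusted p = 0.144), and in 8 of 30 fits without 1 array, each an array of fibroblast or testis from Nebraska or Yerkes.

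**Figure D2:**
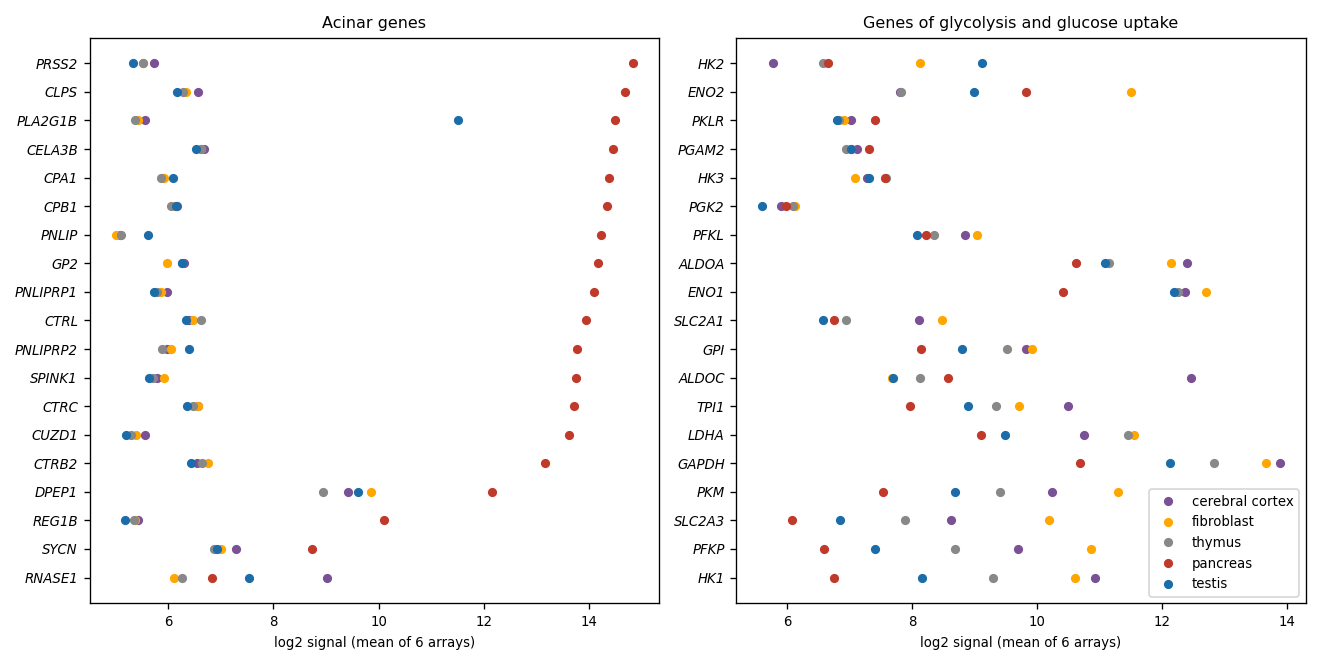
Log2 signal (x axis, mean of 6 arrays) of each measured gene (y axis) in the 5 tissues, for acinar genes on the left and for genes of glycolysis and glucose uptake on the right. On the left the testis point of PLA2G1B (11.51) lies by itself between pancreas and the other tissues, and on the right pancreas and testis lie at the low end for PFKP, HK1, SLC2A3 and LDHA.

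H19 and IGF2 are neighboring imprinted genes, with no other gene between them in the RefSeq table of the macaque genome. H19, a long non-coding RNA of growing tissues, ranged from 11.85 to 12.34 in pancreas (median 11.90) and from 12.64 to 13.16 in testis (median 12.96). Thymus was next, from 8.79 to 9.33, and no array of another tissue reached the pancreas range. The joint difference was 2.95 (SE 0.09, largest adjusted p = 3.27e-23, limma), and both further H19 probesets were called higher, by 1.37 and 2.04.

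IGF2, an insulin-like growth factor, was also highest in testis and next in pancreas. Its signals were 8.16, 8.54 and 9.21 (lowest, median and highest) in pancreas and 9.17, 9.46 and 11.38 in testis. The highest other array was at 7.95, in cortex. The joint difference was 1.48 (SE 0.24, largest adjusted p = 1.97e-06, limma), the largest standard error among the 20 genes with the largest joint differences. The value of 11.38 came from 1 Nebraska array, and without it the joint difference, which pancreas sets, was the same 1.48.

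DLK1, an imprinted gene for a membrane protein with epidermal growth factor repeats, ranged from 8.60 to 9.28 in pancreas and from 10.37 to 10.78 in testis. Thymus reached 7.23, the highest of the other tissues, and this left a joint difference of 2.08 (SE 0.10, largest adjusted p = 1.95e-18, limma). A list of imprinted genes was drawn up after these values had been seen, and so it was not tested. Of its 18 measured genes, H19, DLK1 and IGF2 were called higher in both (16.7%, against 3.83% of all genes) and none lower. MEST and PEG3 were instead high in testis and cortex, at 10.40 and 8.98 for MEST and 11.77 and 10.57 for PEG3. GRB10 was highest in pancreas, at 9.57, but its 8.22 in testis was below the 8.67 of cortex.

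LGR4, a receptor for R-spondins that strengthens Wnt signaling, had the third largest joint difference. It ranged from 9.29 to 9.67 in pancreas and from 9.59 upward in testis (median 9.64), and the highest other array was a fibroblast array at 7.31. The joint difference was 2.68 (SE 0.08, largest adjusted p = 3.60e-23, limma). A second LGR4 probeset kept the order, at 7.03 in pancreas, 6.74 in testis and 6.58 in fibroblast, but was not called. SERPING1, the inhibitor of complement C1, ranged from 9.73 to 10.58 in pancreas and from 9.45 upward in testis (median 9.59), while no other array exceeded 7.94. Its joint difference was 2.23 (SE 0.07).

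**Figure D3:**
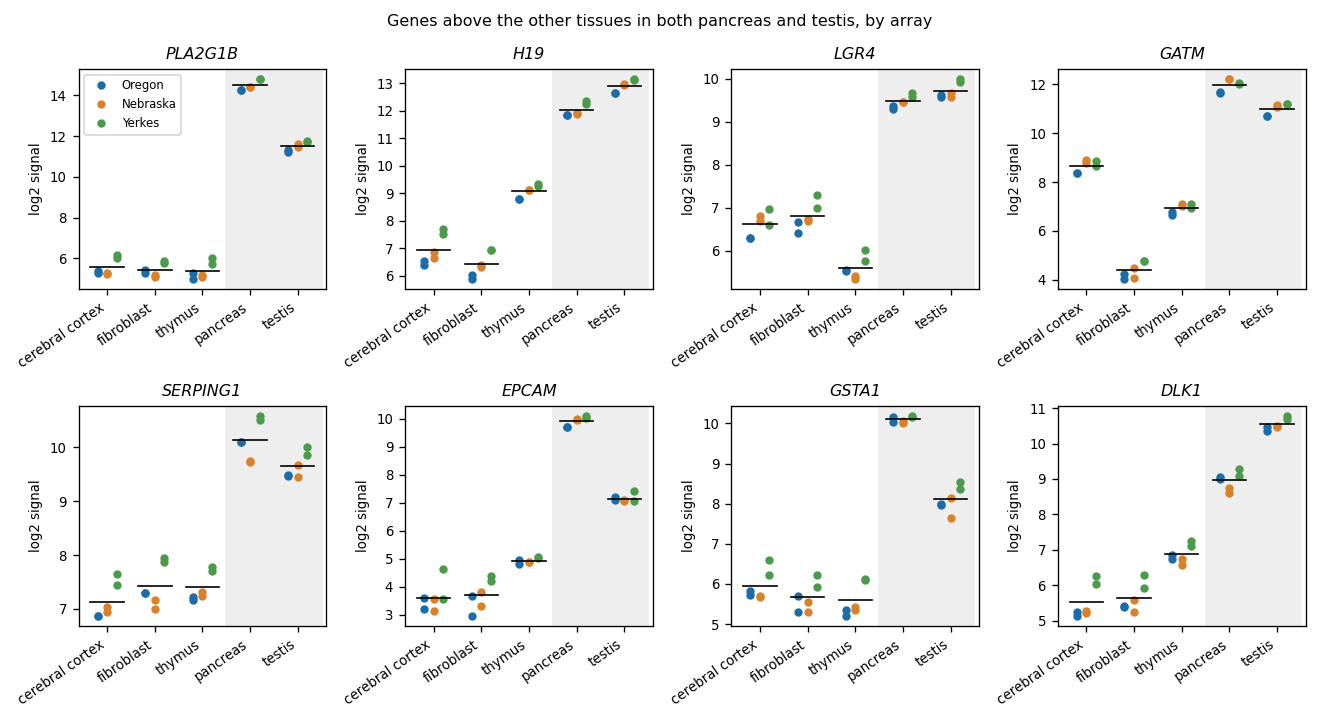
Log2 signal (y axis) of single arrays, grouped by tissue along the x axis and colored by center, for the 8 genes with the largest joint differences among those higher in both, with lines at the mean of 6 arrays and pancreas and testis shaded. In every panel the 12 shaded points lie above the other 18, by the widest margin for PLA2G1B.

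Epithelial genes were mostly high in pancreas, and a few were shared with testis. EPCAM, an adhesion molecule of epithelia, ranged from 9.70 to 10.10 in pancreas and from 7.06 to 7.41 in testis. The highest other array was at 5.07, in thymus. EPCAM had a joint difference of 2.22 (SE 0.15, largest adjusted p = 3.17e-14, limma), and pancreas exceeded testis by 2.77. Of 24 epithelial genes measured, 5 were called higher in both (20.8%, against 3.83% of all genes) and none lower. CLDN3, a tight junction claudin, was 1.31 (SE 0.10) above the next tissue, and KRT8, a keratin of simple epithelia, 1.02 (SE 0.11). CLDN4, also a claudin, and the junction scaffold gene TJP3 were 0.20 and 0.19 above it. CLDN4 lost its call with aliquots averaged (adjusted p = 0.0755, limma) and stood at 0.06 over all its probesets. TJP3 stood at -0.0043 at Oregon and lost its call in 10 alternative settings, quantile normalization and averaged aliquots among them, and in 10 of 30 fits that each left out 1 array. MUC1, the membrane mucin, was at 10.47 in pancreas but 6.71 in testis, within 0.05 of the other tissues. Over the list, pancreas was highest for 17 genes and testis for 2.

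The junction genes CGN and CGNL1, which encode cingulin and a paralog, were outside that list and had joint differences of 1.07 (SE 0.08) and 1.07 (SE 0.09). Both were higher in testis than in pancreas, at 8.65 against 7.75 for CGN and 8.55 against 8.03 for CGNL1. RAB17, a small GTPase of polarized trafficking, had medians of 9.01 in pancreas, 7.88 in testis and 6.33 in cortex. Its joint difference was 1.54 (SE 0.06).

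Among 19 transcription factors of endoderm and gonad, 6 were called higher in both (31.6%, against 3.83% of all genes) and none lower. The list's median for pancreas and testis together against the mean of the other 3 tissues was 1.13, against 0.0036 over all genes. GATA6, a zinc finger factor of endoderm and gonad, ranged from 8.08 to 8.65 in pancreas and from 8.72 to 8.89 in testis. Fibroblast was next, up to 7.26, and the joint difference was 1.63 (SE 0.12, largest adjusted p = 2.05e-13, limma). Its relative GATA4 was at 9.35 in testis and 7.11 in cortex, and pancreas lay between them, with a joint difference of 0.90 (SE 0.12). Both further GATA4 probesets were called, with 2.26 and 0.80.

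NR0B1, an orphan nuclear receptor of gonad and adrenal, ranged from 6.04 to 6.94 in pancreas and from 7.06 to 7.66 in testis. The highest other array was at 5.61, in fibroblast, and the joint difference was 1.32 (SE 0.09, largest adjusted p = 1.17e-14, limma). NR0B2, which represses other nuclear receptors, leaned the other way, with 8.12 in pancreas and 7.14 in testis, 0.39 (SE 0.06) above thymus. WT1 and NR5A1, which act in gonad development, were called by 0.45 (SE 0.12) and 0.25 (SE 0.10). The order of WT1 was lost when all its probesets were averaged, with a joint difference of -0.39. NR5A1 lost its call at each center alone and without pancreas Oregon replicate 1, pancreas Nebraska replicate 2 or fibroblast Yerkes replicate 1. FOXA2 and ONECUT1, factors of endoderm, were at 8.47 and 7.59 in pancreas but at 5.92 and 4.93 in testis, below each of the other tissues.

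GATM, which catalyzes the first step of creatine synthesis, ranged from 11.67 to 12.23 in pancreas and from 10.70 to 11.20 in testis, with cortex next at up to 8.92. The joint difference was 2.35 (SE 0.08, largest adjusted p = 3.60e-22, limma), and both further probesets gave 1.78 and 2.14. GAMT, which catalyzes the second step, was at 10.30 in pancreas and 8.67 in testis, 0.30 (SE 0.08) above fibroblast. GAMT lost its call at Yerkes alone (0.13, adjusted p = 0.316, limma) and without a center term (adjusted p = 0.285). Of 21 genes of amino acid and creatine metabolism, 4 were called higher in both (19%, against 3.83% of all genes) and none lower. The remaining 2 were AMT, of glycine cleavage, by 0.85 (SE 0.07) and PHGDH, of serine synthesis, by 0.63 (SE 0.06).

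GSTA1, an alpha class glutathione transferase, ranged from 10.02 to 10.18 in pancreas and from 7.65 to 8.54 in testis. The highest other array was at 6.60, in cortex, and the joint difference was 2.15 (SE 0.10, largest adjusted p = 1.18e-18, limma). GSTA3 had the opposite balance, 7.24 in pancreas and 10.34 in testis, so that testis exceeded pancreas by 3.10 (SE 0.08), and the joint difference was 1.25 (SE 0.08). Alpha class genes are near-identical in places, and signal shared between their probesets was not tested. Of 19 glutathione transferases and peroxidases, GSTA1 and GSTA3 were the ones called higher (10.5%, against 3.83% of all genes). GPX4, the peroxidase of lipid hydroperoxides, was the one called lower (5.26%, against 3.00% of all genes), by 1.07 (SE 0.07).

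Other enzymes past a difference of 1 were ACSM3, a medium-chain acyl-CoA synthetase, by 2.04 (SE 0.10), and EPHX1, the microsomal epoxide hydrolase, by 1.33 (SE 0.09). EPHX1 was at 10.81 in pancreas and 9.23 in testis. ANGPTL4, a secreted inhibitor of lipoprotein lipase, was higher by 1.45 (SE 0.08), and LPCAT2, an acyltransferase of phospholipid remodeling, by 1.29 (SE 0.09). REEP6, of the endoplasmic reticulum membrane, was higher by 1.57 (SE 0.08), and ECHDC3 by 1.52 (SE 0.07). ITPRID2 was higher by 1.54 (SE 0.08). DNMT3L, a cofactor of DNA methyltransferases known from germ cells, was near 7 in both tissues, at 7.02 in pancreas and 6.84 in testis. The joint difference of DNMT3L was 1.40 (SE 0.08).

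Vessel and smooth muscle genes were partly shared. Of 12 measured, 3 were called higher in both (25%, against 3.83% of all genes) and none lower. VWF, the von Willebrand factor of endothelium, was at 8.45 in pancreas, 8.44 in testis and 7.42 in thymus, a joint difference of 1.02 (SE 0.07). TEK, an angiopoietin receptor, was higher by 0.61 (SE 0.08). The second probesets of VWF and TEK were not called, with testis at 6.09 and 6.19, below fibroblast at 6.19 and 6.48. MYH11, the smooth muscle myosin, was at 11.42 in testis and 7.49 in pancreas, and higher by 0.76 (SE 0.08). Further MYH11 probesets were called at 0.60 and 0.38, and another, at 0.02, was not. PECAM1, another endothelial gene, was highest in thymus, at 9.46. CAVIN2, a component of caveolae, was outside the list and higher by 1.33 (SE 0.09), at 7.49 in pancreas and 8.36 in testis.

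Genes known from the testis gave several calls in which pancreas was only slightly above the other tissues. Of 11 genes of testis somatic cells, 7 were called higher in both (63.6%, against 3.83% of all genes), none of them by 1. GATA4, WT1 and NR5A1 were among the 7 and also among the called transcription factors of endoderm and gonad, so that the counts of these lists overlap. In 4 groups of genes by mean signal, from the dimmest to the brightest, the share called higher was 4.53%, 5.55%, 3.48% and 1.78%. AMH was at 6.98 in pancreas and at 6.49 in fibroblast. INHA, an inhibin subunit, was at 7.85 in pancreas with a joint difference of 0.85, and CYP17A1 was at 6.66 in pancreas and at 6.02 in thymus. The pancreas arrays lay above the other tissues for dim genes in general. When genes were put in 4 groups of like size by mean signal, pancreas exceeded each of the other 3 tissues in 2048 of the 3534 dimmest genes and testis in 565, and the median of pancreas minus the mean of the other 3 was 0.27. The part of this shift in these calls was not tested. With all arrays shifted to one median, the joint difference of AMH was 0.28 (adjusted p = 0.0676, limma), that of the steroid enzyme gene HSD3B2 0.15 (adjusted p = 0.204), that of WT1 0.23 (adjusted p = 0.0706) and that of NR5A1 0.04 (adjusted p = 0.716), and these 4 of the 7 lost their calls. Of 11 germ cell genes, ZPBP and TEX101 were called higher in both (18.2%, against 3.83% of all genes), by 0.36 and 0.31. TEX101 lost its call with arrays shifted to one median, at 0.10 (adjusted p = 0.19, limma), and after quantile normalization of all arrays, at 0.09 (adjusted p = 0.225). ZPBP lost its call at Oregon alone and at Yerkes alone.

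Of 8 islet genes, ISL1 and SLC30A8, a zinc transporter of beta cells, were called higher in both (25%, against 3.83% of all genes). Their joint differences were 0.44 (SE 0.11) and 0.52 (SE 0.08). ISL1 lost its call at Oregon alone (0.36) and at Nebraska alone (0.35), and both genes lost it without a center term. GCG, the glucagon precursor, averaged 12.48 in pancreas and 4.07 in testis. Of 16 genes of ducts and ion transport, only ANO1, a chloride channel, was called higher (6.25%, against 3.83% of all genes), by 0.36 (SE 0.10). ANO1 lost its call at Oregon alone (0.09), at Yerkes alone (0.12) and without Nebraska (0.30). None of 26 genes of liver-type secreted proteins and none of 31 genes of protein export and folding in the endoplasmic reticulum was called in either direction. AMBP, a plasma protein precursor, was at 10.52 in testis but 5.99 in pancreas, below thymus at 6.22. None of 6 red blood cell genes and none of 10 genes of B and myeloid cells was called in either direction. Over all genes, 3.83% were called higher and 3.00% lower. At those shares lists of 6 or 10 genes would hold few or no calls.

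The 45 genes were spread over both tissues. The mean was highest in pancreas for 21 of them and in testis for 24. The difference between pancreas and testis passed the test in 40 genes, in favor of pancreas in 16 and of testis in 24. The 5 that did not differ by the test included VWF, KRT8 and CILP, a matrix protein at 7.15 in each. The next tissue was cortex for 20, thymus for 15 and fibroblast for 10. Just inside the limit of 1 were BIK and DNMBP, both at 1.01, and just outside it PDLIM3 at 0.99 and TMEM51 at 0.98. Other probesets existed for part of these genes, and of 28 such probesets 19 were called the same way. COL14A1, a fibril-associated collagen, was at 8.01 in pancreas, 8.86 in testis and 6.71 in thymus, but its joint difference was -0.21 when all its probesets were averaged.

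**Figure D4:**
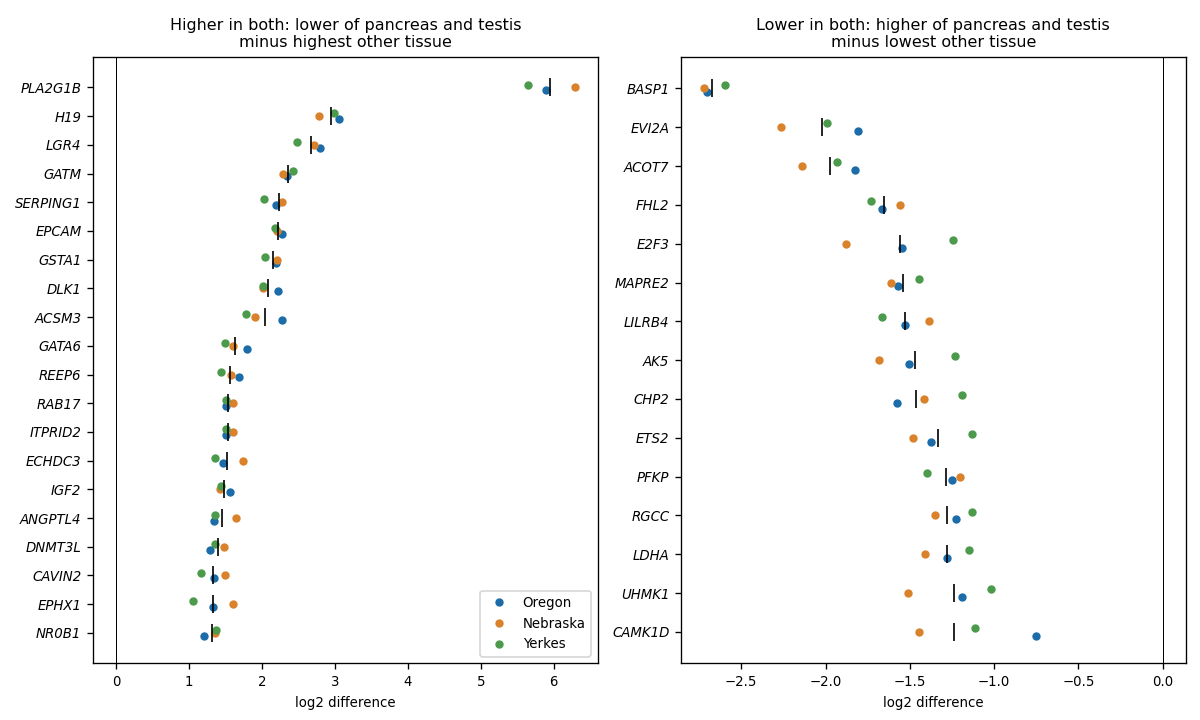
Joint difference in log2 units (x axis) at each center (colored points) and over all 30 arrays (black bars) for the 20 genes higher in both with the largest values (left) and the 15 lower in both (right). Every point lies on the same side of 0 as its bar, and the spread between centers was widest for CAMK1D, from -1.45 at Nebraska to -0.75 at Oregon.

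Among genes lower in both, BASP1, a membrane protein of growing axons, led. In pancreas its lowest, median and highest signals were 5.81, 6.04 and 6.50, and in testis 6.23, 6.54 and 6.86. Thymus, the next tissue, ranged from 8.99 to 9.52, and cortex from 12.30 to 12.93. All 12 arrays lay below the other 18, with a joint difference of -2.67 (SE 0.08, largest adjusted p = 6.50e-24, limma).

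EVI2A, a membrane protein of blood cells, ranged from 4.27 to 4.75 in pancreas and from 5.69 to 5.95 in testis, and the lowest other array was at 7.53, in cortex. Its joint difference was -2.02 (SE 0.10). ACOT7, a cytosolic acyl-CoA thioesterase, was at 7.32 in pancreas and 7.41 in testis, a difference that did not pass the test (adjusted p = 0.308, limma). Its joint difference was -1.97 (SE 0.09). FHL2, a LIM domain protein, had means of 6.12 in pancreas, 7.39 in testis and 9.04 in cortex, and fell below the next tissue by 1.65 (SE 0.07) on the log2 scale.

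The transcription factor genes E2F3, which drives entry into S phase, and ETS2 had joint differences of -1.56 (SE 0.12) and -1.33 (SE 0.07). The genes of signaling and the cytoskeleton were MAPRE2, a microtubule end binding protein, at -1.54 (SE 0.06), CAMK1D, a calcium-dependent kinase, at -1.24 (SE 0.11), UHMK1, a kinase, at -1.24 (SE 0.07), and CHP2, a calcineurin-like calcium binding protein, at -1.46 (SE 0.10). LILRB4, an inhibitory receptor of leukocytes, was at -1.53 (SE 0.08) and the cell cycle regulator RGCC at -1.28 (SE 0.07). MAPRE2, UHMK1, CHP2 and LILRB4 each had another probeset that was not called. AK5, an adenylate kinase of brain, was at -1.47 (SE 0.08), and both its further probesets were called, at -1.41 and -1.55.

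Genes of glucose uptake and glycolysis, which turn glucose into pyruvate and lactate, were among those lower in both, and a list of the pathway was drawn up after that had been seen, so it was not tested. Of its 19 measured genes, 8 were called lower in both and none higher. These 8 made up 42.1%, against 3.00% of all genes and 7.02% of the brightest of the 4 groups by mean signal. In 12 genes of the list both means were below the other 3, an order that 838 of all genes had (5.93%). The list's median for pancreas and testis together against the mean of the other 3 was -1.18. SLC2A3, a glucose transporter, ranged from 5.60 to 6.86 in pancreas and from 6.60 to 7.28 in testis, and from 7.53 to 8.42 in thymus. HK1, the hexokinase of most tissues, was at 6.75 in pancreas, 8.16 in testis and 9.29 in thymus. PFKP, the platelet phosphofructokinase, was at 6.58 in pancreas, 7.41 in testis and 8.69 in thymus. LDHA, the muscle type lactate dehydrogenase, had a median of 9.04 in pancreas (highest 9.26) and ranged from 9.21 to 9.72 in testis, and the lowest other array was at 10.69, in cortex.

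The joint differences of these 4 genes were -1.04 (SE 0.09) for SLC2A3, -1.13 (SE 0.06) for HK1, -1.28 (SE 0.08) for PFKP and -1.28 (SE 0.05) for LDHA. GPI, PKM, GAPDH and TPI1, further enzymes of the pathway, were called by -0.72 (SE 0.08), -0.71 (SE 0.17), -0.70 (SE 0.07) and -0.44 (SE 0.09). PKM, the pyruvate kinase of most tissues, was at -0.15 at Nebraska and at -1.22 at Yerkes, and it lost its call at Nebraska alone. Not all genes of the pathway had this order. HK2, another hexokinase, was highest in testis, at 9.11. The GPI probeset used here was lower in both, but another GPI probeset was at 11.32 in testis, above all other tissues, so the direction of GPI in testis depended on the probeset. SLC2A3, HK1, PKM and GAPDH each had an uncalled probeset as well as a further one called lower, and the only further TPI1 probeset was not called. On the uncalled probeset of SLC2A3 testis was highest, at 7.34. On that of PKM, pancreas (6.12) was above fibroblast (5.48) and thymus (5.44).

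**Figure D5:**
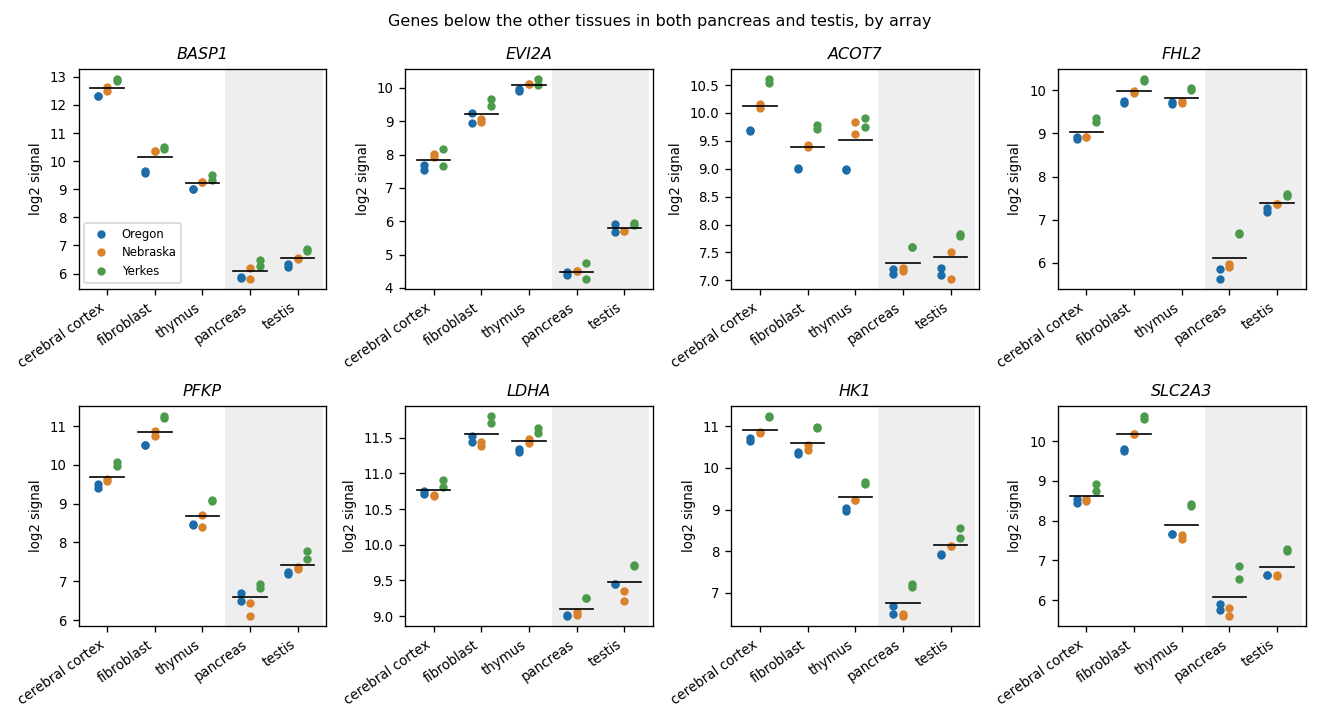
Log2 signal (y axis) of single arrays, grouped by tissue along the x axis and colored by center, for 8 of the genes lower in both, 4 with the largest joint differences (top) and 4 of glucose uptake and glycolysis (bottom). Within each center the shaded pancreas and testis points lie below the other tissues. By tissue mean, testis is closer to them than pancreas for all 8 genes, by the least for ACOT7 (7.41 against 7.32).

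The genes lower in both were bright ones. In the 4 groups by mean signal, from the dimmest to the brightest, 10, 53, 113 and 248 genes were called lower, whereas 160, 196, 123 and 63 were called higher. In the brightest group pancreas was below the mean of the other 3 tissues by a median of -0.54, while testis stood at 0.04. The interquartile range of signal averaged 1.49 over the pancreas arrays and between 1.75 and 1.91 in the other tissues. GAPDH was brighter on its 3' than on its 5' control probeset, by 1.81 ± 0.58 in fibroblast, 1.58 ± 0.49 in pancreas, 0.82 ± 0.42 in cortex, 0.69 ± 0.29 in testis and 0.47 ± 0.36 in thymus (SD, n = 6 arrays). The part of these array properties in the calls was not tested. For 18 of the 24 genes and 298 of the 424, testis was the higher of the 2 tissues, so that the joint difference was that of testis.

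Of 27 genes of the actin cytoskeleton, 5 were called lower in both (18.5%, against 3.00% of all genes and 7.02% of the brightest group), none of them by 1, and none was called higher. TMSB4X, a thymosin that binds free actin, was lower by 0.79 (SE 0.07) on its brightest probeset, CORO1C, a coronin, by 0.66 (SE 0.07), and TMSB10, another thymosin, by 0.49 (SE 0.07). The ARP2/3 complex genes ACTR3 and ACTR2 were lower by 0.55 (SE 0.17) and 0.44 (SE 0.10). When all probesets of the gene were averaged, TMSB4X and ACTR2 were no longer below the other 3 tissues in both (0.18 and 0.31). CORO1C then lost its call, at -0.12. ACTR2 also lost its call after quantile normalization of all arrays (-0.18, adjusted p = 0.0964, limma) and ACTR3 with aliquots averaged (adjusted p = 0.0515). None of 21 splicing factor genes was called. Of 22 chromatin genes, only SMARCB1, a SWI/SNF subunit, was called lower (4.55%, against 3.00% of all genes), by -0.39 (SE 0.07).

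Pancreas and testis were also taken as 1 group, as the mean of the 2 tissues minus the mean of the other 3, called at an adjusted p under 0.05 and a difference of at least 1. This gave 548 genes higher (3.88%) and 765 lower (5.41%), and 738 and 659 after quantile normalization of all 30 arrays. Only 233 of the 548 (42.5%) were called higher in both tissues, and 186 of the 765 (24.3%) lower in both. The largest values among genes outside the joint calls belonged to PRSS2, CPB1, GP2, PNLIPRP1 and CLPS, between 4.03 and 4.49. GP2, a membrane glycoprotein of zymogen granules, was at 14.17 in pancreas and 6.26 in testis, close to the 6.30 of cortex. At the other end, MMP3, SERPINB2 and MMP1 were high in fibroblast, with MMP3, a matrix metalloproteinase, at 13.88 there and between 4.36 and 4.81 in the other tissues. OPRL1, the nociceptin receptor, was at 11.51 in cortex, and MMP12 was near 9.5 in fibroblast and thymus and at 4.16 in cortex. Of the 548 genes, 244 were highest in pancreas and 268 in testis.

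Counts were made in the same way for other pairs of tissues. Pancreas with thymus gave 410 genes higher (2.90%) and 713 lower (5.04%), testis with thymus 1119 (7.92%) and 731 (5.17%), and cortex with pancreas 1135 (8.03%) and 1727 (12.2%). By at least 1, pancreas with testis had 45 genes higher, against 19 for pancreas with thymus (0.134%), 116 for testis with thymus (0.821%) and 71 for cortex with pancreas (0.502%). It had 24 genes lower by at least 1, against 93 (0.658%), 21 (0.149%) and 226 (1.60%). These counts share arrays, and the differences between them were not tested.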

How the data were processed

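Per the study's methods, the authors corrected background by MAS 5.0, quantile normalized the arrays of each center separately and summarized all 30 arrays by RMA. The deposited values are log2 signals of 52865 probesets, and these steps were not repeated. They leave a center offset, for which center was a model term. Probesets were named from the platform annotation: 24969 carried 1 symbol, 361 several and 27535 none. Each of 14133 genes was represented by its probeset with the highest mean. No sequence was used here.

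A model of tissue means with a center term was fitted to all 52865 probesets with limma 3.58.1 in R 4.3.3. The p-values of each contrast were adjusted by Benjamini-Hochberg over all probesets, and calls were then read for the 14133 genes. Genes named were the 20 and 15 with the largest joint differences, the 5 highest and 5 lowest of the pooled contrast outside the joint calls, called list members and examples of each list, and further genes past a difference of 1. Some list members were named as contrasts after their values were seen. Genes with only a locus name were counted and not named (1 of 45 higher, 4 of 24 lower). Members and lists were chosen with earlier results of these data known. The number of arrays limits the precision.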

Additional observations from a re-analysis of the deposited data

Results flagged for a closer look

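Single arrays that stood apart within a tissue were looked for in the genes with the largest joint differences, after the center means were taken out. The measure was the gap of the extreme array to the next one as a share of the range over the 6 arrays, with Dixon's limit for 6 values, and 128 values were tested. Chance flags about 1 in 20. In testis, Nebraska replicate 1 stood apart for IGF2 (share 0.769, 11.55 against 9.65 for the next array), EPHX1 (0.678), ACOT7 (0.739) and UHMK1 (0.682), and it had the lowest array weight of all 30 arrays, 0.49. DNMT3L stood apart on testis Nebraska replicate 2 (0.824). EVI2A stood apart on pancreas Yerkes replicate 2 (0.754) and on testis Oregon replicate 1 (0.666), LILRB4 on testis Yerkes replicate 1 (0.69) and AK5 on pancreas Nebraska replicate 1 (0.634). These genes kept their calls without each array.

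Among the genes past a joint difference of 1, pancreas and testis differed by at least 2, with an adjusted p under 0.05 in limma, in PLA2G1B (2.98, higher in pancreas), EPCAM (2.77, higher in pancreas) and GSTA3 (-3.10, higher in testis).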

How the results depend on the processing

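The p-values rest on 1 RNA sample per tissue, the pancreas arrays had the narrowest range of signal, and no sequence was checked for probes shared between paralogs. The paper judged the pancreas arrays to be of lower quality than the others, from larger scaling factors and standard errors. It advised caution with them, and pancreas is part of every joint call. All 45 genes higher and all 24 lower by at least 1 were still called (at any size) under quantile normalization, without a center term, with aliquots averaged, at each center alone, without each center, with the replicate block, with array weights and with arrays shifted to one median. Among probesets with a mean signal above the median, 38 of the 45 were left to test and called, and with the mean of all probesets of a gene 44 were. The replicate block gave 533 genes higher and 417 lower, and ended the calls of CPA1 and PLA2G12A. Deviations of same-numbered arrays correlated over 0.1 in 3 of 10 pairs of tissues at Yerkes (-0.30 to 0.35) and in 0 of 10 at the other centers, so the numbers were not taken as pairs. Without a center term, 184 genes were higher and 185 lower. At Nebraska alone 328 were higher, and at Yerkes alone 322 were higher and 269 lower. With arrays shifted to one median, 359 were higher, and the median of the pooled contrast over all genes moved by -0.09. With the mean of all probesets, 14 genes were lower by at least 1. With a least difference of 2, 10 were higher and 2 lower. A model of 2 groups (12 arrays against 18) gave 485 higher and 537 lower in the pooled contrast. Leaving out each array in turn gave 516 to 550 genes higher, 406 to 442 lower, 43 to 47 higher and 24 to 25 lower by at least 1, and 544 to 559 higher and 758 to 787 lower in the pooled contrast. The mean of all probesets changed the sign of the joint difference of COL14A1 (-0.21), WT1 (-0.39), TMSB4X (0.18), ACTR2 (0.31) and GPI (1.16). It also changed the sign of the pooled contrast of HNF4G (0.48) and RDX (-0.0014). Oregon alone changed the sign of the joint difference of PLA2G12A (-0.0234) and TJP3 (-0.0043). A joint difference of changed sign shows that the order was lost, not that both tissues lay on the opposite side of the other 3. The cause of these changes was not tested, beyond the probesets that differ.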
